A study of Mus musculus with 18 samples.

Results

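The accessibility of chromatin around 37 cell cycle and DNA replication genes was examined in bone marrow-derived macrophages (BMDMs) by ATAC-seq, in which a transposase cuts open DNA and the reads in a peak count those cuts. Every peak with its nearest edge within 10 kb of the transcription start site (TSS) of 1 of the 37 genes was taken, with the TSS read from the mm9 GENCODE M1 annotation. This gave 222 peaks of the 194284 in the series, of which the authors classed 88 as promoter and 134 as distal. All 222 passed the filter on low counts. A gene had between 1 and 12 peaks (median 6), 119 of the 222 lay in the body of the gene itself, and 10 held the TSS of another protein-coding gene.

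BMDMs came from 3 male Il10-/- mice on the C57BL/6J background, 12 weeks old per the study's methods, so that every library, controls included, lacked the cells' own IL-10. Bone marrow was grown for 6 days in medium conditioned by L929 cells, a source of macrophage growth factor. Cells were left untreated, given 500 nM (+)-JQ1, a BET bromodomain inhibitor, or given 10 ng/mL IL-10 for 12 h, and then received 50 ng/mL LPS or PBS for 4 h, which gave 6 groups of 3 libraries. The 2 groups given neither agent, called unstimulated and LPS here, are untreated per the labels. The study's methods name a vehicle control for cells that then received LPS. They describe the unstimulated control as untreated and name no vehicle for it.

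Each library held from 12020526 to 25908198 counts over all peaks. Unstimulated replicates 1, 2 and 3 held 12020526, 15808647 and 17586208, and the other 15 libraries between 13619436 and 25908198. Values are CPM (a library's count scaled to a common total) after scaling between libraries by the trimmed mean of M values (TMM). At macrophage markers the accessibility of the peak nearest the TSS was between 4.64 and 40.0 CPM per kb of peak at 8 of 8 genes. At T cell, B cell, erythroid and neutrophil markers it was between 0.967 and 2.26 CPM per kb, except at S100a8 with 15.5, and Col1a1 among the stromal markers had 5.67. Both of these values lie within the range of the macrophage markers. Pdgfra, the other stromal marker with a peak, is given no value here. No peak lay within 10 kb of the TSS of Gata1, Hbb-b1 or Col1a2. The share of a library's counts that fell in peaks over protein-coding TSSs was 23.6%, 25.5% and 28.4% in unstimulated replicates 1, 2 and 3 and between 24.9% and 34.5% in the other 15. The labels call the samples of the 6 groups matched but do not say that a replicate number stands for 1 mouse. Replicate 1 was sequenced in one lane, replicate 3 in another, and replicate 2 in the first lane without LPS and in the second with it. In bulk libraries such as these, fewer open cells and less open chromatin per cell cannot be told apart.

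As background, DNA replication is licensed in G1, when Cdc6 and Cdt1 load the Mcm2-7 helicase at origins. In S phase Cdc45 and the GINS complex turn the loaded helicase into an active one. Cyclin E with Cdk2 starts S phase, and cyclin A and cyclin B with Cdk1 carry the cell into mitosis, where Aurora and Plk1 kinases, the Bub1 checkpoint and the kinesin Kif11 act on the spindle. Genes of the first set are classically controlled through E2F sites, and those of the second through the cell cycle genes homology region (CHR) and CCAAT boxes. Macrophages grown from bone marrow divide in response to macrophage growth factor, and LPS is known to arrest them.

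Both kinds of element were read in the mm9 sequence from 250 bases before to 50 bases after each TSS, on both strands. The letters were GCGGGAA or GCGCGAA for E2F, TTTGAA for CHR and CCAAT for the CCAAT box, and none of these letters can lie inside another. E2F letters were present in 8 of 22 genes with a G1/S role (36.4%) and 1 of 15 with a G2/M role (6.7%), beside 7.2% of all 22375 protein-coding promoters. CHR letters were present in 3 of 22 (13.6%) and 10 of 15 (66.7%), beside 16.3% of all. CCAAT boxes were present in 27 of 37 (73.0%), beside 37.9% of all. The AP-1 letters TGANTCA were in 0 of 37 windows and 6.9% of all, and the kappaB letters (GGGA, any 3 bases, CCC) were in 2 of 37 (5.4%) and 5.8% of all. The 250 upstream bases of 6 genes are printed to show how these letters are laid out, with every E2F, CHR and CCAAT match on either strand in capitals, 3 genes with repeated E2F letters first (the second match of Mcm5 lies after its TSS) and 3 with CHR letters and CCAAT boxes after them:
Mcm6 (chr1:130256234-130256483, minus strand): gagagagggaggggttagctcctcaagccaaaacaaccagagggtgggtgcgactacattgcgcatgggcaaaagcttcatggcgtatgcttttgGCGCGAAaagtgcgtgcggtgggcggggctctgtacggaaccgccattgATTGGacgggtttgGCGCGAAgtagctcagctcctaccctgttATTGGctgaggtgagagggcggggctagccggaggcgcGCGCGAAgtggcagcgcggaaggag
Mcm5 (chr8:77633177-77633426, plus strand): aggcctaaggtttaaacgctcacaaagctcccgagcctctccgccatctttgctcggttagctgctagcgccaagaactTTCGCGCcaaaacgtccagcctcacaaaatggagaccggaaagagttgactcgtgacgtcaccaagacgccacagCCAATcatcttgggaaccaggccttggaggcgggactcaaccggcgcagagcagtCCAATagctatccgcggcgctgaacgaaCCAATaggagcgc
Cdk2 (chr10:128142108-128142357, minus strand): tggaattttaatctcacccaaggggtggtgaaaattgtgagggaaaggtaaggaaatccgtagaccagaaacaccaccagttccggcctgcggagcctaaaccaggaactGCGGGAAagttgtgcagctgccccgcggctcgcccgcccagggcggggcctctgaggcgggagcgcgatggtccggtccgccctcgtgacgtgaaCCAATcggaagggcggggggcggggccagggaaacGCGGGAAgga
Cdk1 (chr10:68815687-68815936, minus strand): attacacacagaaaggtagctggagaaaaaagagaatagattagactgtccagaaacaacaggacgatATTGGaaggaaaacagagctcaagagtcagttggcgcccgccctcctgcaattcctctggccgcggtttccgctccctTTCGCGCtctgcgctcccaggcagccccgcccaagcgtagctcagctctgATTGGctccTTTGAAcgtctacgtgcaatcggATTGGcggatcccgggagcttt
Top2a (chr11:98885504-98885753, minus strand): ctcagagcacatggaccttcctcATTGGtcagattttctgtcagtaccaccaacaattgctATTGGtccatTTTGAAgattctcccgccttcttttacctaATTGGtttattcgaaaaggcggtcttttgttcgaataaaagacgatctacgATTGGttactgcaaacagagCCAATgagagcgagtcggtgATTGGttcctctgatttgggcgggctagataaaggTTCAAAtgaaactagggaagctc
Mki67 (chr7:142908063-142908312, minus strand): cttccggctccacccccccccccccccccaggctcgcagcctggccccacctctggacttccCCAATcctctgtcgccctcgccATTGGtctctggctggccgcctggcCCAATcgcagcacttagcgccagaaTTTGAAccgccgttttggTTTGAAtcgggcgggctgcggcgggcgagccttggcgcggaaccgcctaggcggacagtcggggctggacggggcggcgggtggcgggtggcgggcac

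E2F letters occurred 3 times before the TSS of Mcm6, a subunit of the helicase, and 2 times before that of Cdk2. Top2a, the topoisomerase that untangles sister chromatids, had 6 CCAAT boxes and 2 CHR matches. Cdk1 was the 1 gene with a G2/M role that also had E2F letters.

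A peak covered the TSS at 29 of the 37 genes, and over all protein-coding genes the share was 56.3%. At the other 8 the nearest peak began between 33 and 1048 bp from the TSS. These were Cdk1, Mcm6, Bub1 and E2f2 within 60 bp, and Gins1, the replication clamp Pcna, Mcm4 and Aurka between 218 and 1048 bp away. For those 8 genes the nearest peak is described in place of a promoter peak, and the peak of Mcm7 also held the TSS of Ap4m1 and that of Cdc45 the TSS of Ufd1l. At Gins1 the nearest peak had a mean of 1.62 CPM unstimulated. A promoter-class peak centred at -989 bp from its TSS, over the TSS of Abhd12, had 33.4 CPM.

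The 29 peaks over the TSS were open in every library. Their accessibility, averaged over the 18 libraries, was between 4.15 CPM per kb at Tyms, the thymidylate synthase gene, and 69.5 CPM per kb at Ccne1, with a median of 30.0. The median over all 11600 peaks that cover a protein-coding TSS was 15.1 and that over the 63 ribosomal protein genes was 26.7 CPM per kb. The 17 peaks of genes with a G1/S role had a median of 32.7 and the 12 with a G2/M role a median of 26.7. The most open after Ccne1 were those of Gins2 (59.7), E2f1 (55.6), Ccna2 (50.5) and Cdc45 (48.1). The widest peaks, at Cdc20 (4853 bp), Aurkb (3705 bp) and Ccnb2 (3579 bp), were among the least open per kb, at 7.87, 7.54 and 5.49. The group means of these peaks spanned between 0.26 log2 units at Ccnb2 and 0.99 at Cenpa.

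**Figure D1:**
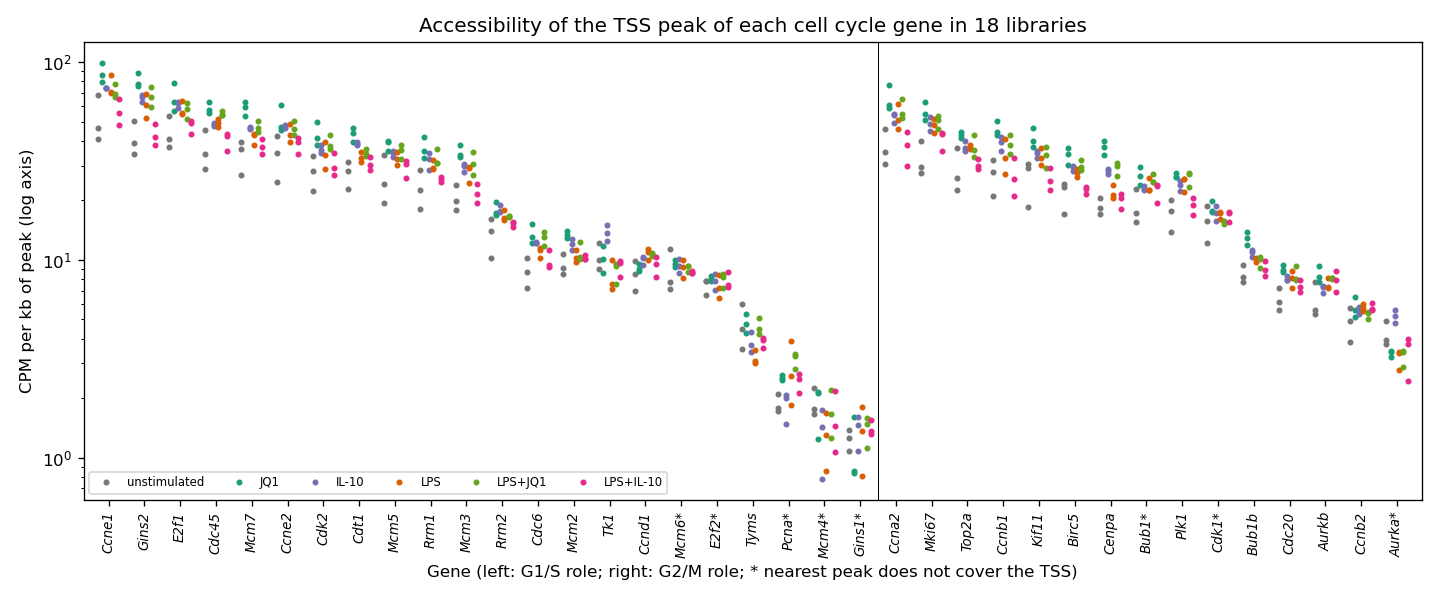
Accessibility of the peak over, or nearest to, the TSS of each of the 37 genes in CPM per kb of peak on a log axis, with 1 point per library (18 per gene) coloured by condition; genes with a G1/S role are on the left and those with a G2/M role on the right. Ccne1, Gins2 and E2f1 are the most open, the 6 conditions overlap or nearly overlap at most genes, and the unstimulated group has the lowest mean at 25 of the 29 peaks that cover a TSS.

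The cells given (+)-JQ1 alone were compared with the unstimulated cells. A peak was called when edgeR's quasi-likelihood test gave a false discovery rate (FDR) under 0.05 and the log2 fold-change passed 0.5 in size. Of the 29 peaks over a TSS, 23 were called higher (79.3%) and 0 lower (0 also at an unadjusted p under 0.05 and by DESeq2), beside 53.7% called higher of all peaks over protein-coding TSSs. Their median log2 fold-change was 0.63, beside 0.54 over all TSS peaks and 0.58 over the ribosomal protein peaks. Over the wider promoter class 31 of 88 member peaks were called higher and 2 lower, beside 22.9% and 2.15% of all promoter peaks. The 31 include the 23 over a member TSS and also peaks over the TSSs of the neighbouring genes Abhd12 and Cds2.

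Cenpa, which encodes the centromeric histone H3 variant, had 22.5, 24.1 and 27.1 CPM in the unstimulated libraries and 44.6, 52.3 and 49.2 with (+)-JQ1. The groups did not overlap, and the log2 fold-change was 0.99 ± 0.13 (SE, n = 3 per group; FDR 6.4e-08, edgeR). Gins2, a subunit of the GINS complex, had 37.3, 42.3 and 54.6 CPM unstimulated and 82.1, 95.4 and 83.4 with (+)-JQ1 (log2 fold-change 0.96 ± 0.14, SE). Among the cyclins, the log2 fold-change was 0.81 at Ccna2, 0.76 at Ccnb1 and 0.76 at Ccne1. Mki67, the gene of the proliferation antigen Ki-67, went from 30.0, 32.1 and 43.4 CPM to 59.4, 68.4 and 55.5 (log2 fold-change 0.79 ± 0.14). In each of these genes the unstimulated library of replicate 3 was the highest of its group. The study reported, from a separate assay, that (+)-JQ1 did not change cell cycle progression in Il10-/- BMDMs.

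Mcm5 had 23.4, 29.1 and 40.9 CPM unstimulated and 42.9, 47.5 and 48.0 with (+)-JQ1 (log2 fold-change 0.56 ± 0.14, FDR 0.0018, edgeR). The log2 fold-change was 0.63 at Plk1, 0.61 at Cdk2 and 0.59 at the TSS peak of E2f1, the G1/S transcription factor. Ccnd1, the D-type cyclin that responds to growth factors, had 0.10 ± 0.14 (FDR 0.70, edgeR), and its groups overlapped. The peaks beside the TSS of Mcm6 (0.13), Cdk1 (0.23) and E2f2 (0.11) were not called. The peak beside Pcna had 0.44 ± 0.26, at 1.90 ± 0.209 CPM (SD, n = 3) unstimulated and 2.58 ± 0.0793 with (+)-JQ1.

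The number of calls changed with the scaling and with the replicate number left out. With total counts in place of TMM, 4 of the 29 TSS peaks were called higher with (+)-JQ1, and with loess offsets 0 (4 at an unadjusted p under 0.05), with medians of 0.35 and 0.02 on the log2 scale. Loess offsets, here and below, remove any shift that peaks of like abundance share within a library. Low counts under them are therefore largely set by the method and cannot show whether a shared shift was real. The median over all TSS peaks was 0.05 with loess offsets. Over all 222 member peaks the split of higher to lower calls was 34 to 11 with TMM, 6 to 32 with total counts and 2 to 7 with loess offsets. Total counts moved the median of all peaks by more than 0.1, from -0.09 to -0.37, and from -0.03 to -0.26 for LPS and from -0.05 to -0.26 for IL-10. With replicate 1, 2 or 3 left out of every group, 18, 4 and 25 of the 29 were called. Within replicate 1 (both libraries in the first lane) the median log2 ratio over the 29 peaks was 0.88, beside 0.73 over all TSS peaks. Within replicate 2 the values were 0.77 and 0.69, and within replicate 3 (both in the second lane) 0.32 and 0.26. The TMM factors of the 3 unstimulated libraries were 1.2432, 1.1513 and 1.0377, and those of the other 15 lay between 0.8964 and 1.0489; the part of this scaling in the calls was not tested beyond these alternatives.

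A quantity that needs no scaling between libraries was also read. Of every 1000 counts in peaks over protein-coding TSSs, the 29 member peaks took 3.49, 3.56 and 3.58 in the unstimulated libraries and 3.67, 3.64 and 3.58 with (+)-JQ1. They took 3.69, 3.76 and 3.67 with IL-10 and 3.56, 3.50 and 3.50 with LPS. The share was 3.61 in each of the 3 libraries with LPS and (+)-JQ1, and 3.52, 3.51 and 3.43 with LPS and IL-10. The IL-10 libraries lay above all 3 unstimulated ones, and the LPS + (+)-JQ1 libraries above all 3 LPS ones.

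**Figure D2:**
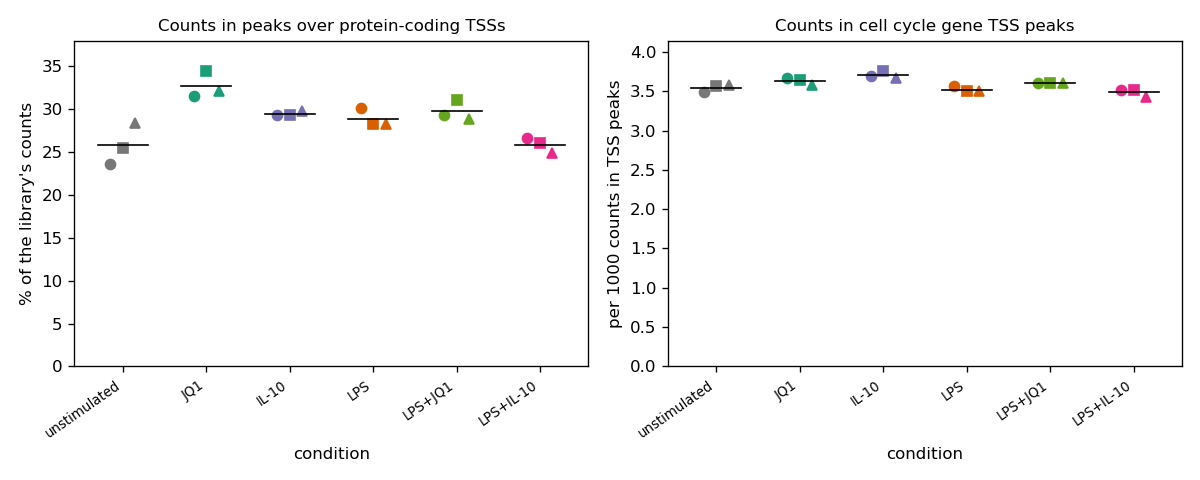
Left, the percentage of each library's counts in peaks over protein-coding TSSs; right, the counts in the 29 cell cycle gene TSS peaks per 1000 counts in all TSS peaks. Each point is a library (circle, square and triangle for replicates 1, 2 and 3), the line is the group mean and both axes start at 0. The left share is between 23.6% and 34.5%, while the right one stays between 3.43 and 3.76.

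IL-10 alone against the unstimulated cells gave 6 of 29 TSS peaks called higher (20.7%) and 0 lower (0 at an unadjusted p under 0.05 and by DESeq2), beside 17.1% higher over all TSS peaks. They were led by Gins2, with 68.4, 72.2 and 73.8 CPM against 37.3, 42.3 and 54.6 (log2 fold-change 0.67 ± 0.14, SE; FDR 0.00039, edgeR). Mki67 (0.60), Cenpa (0.59), Ccnb1 (0.52) and Ccne1 (0.51) were also called. Among the 88 promoter peaks 11 were called higher and 1 lower, beside 8.72% and 1.97% of all promoter peaks. The 11 include the 6 over a member TSS and also peaks at the neighbouring genes Elovl1, Cenph and Afmid. The lower one, inside Pcna, had 4.35, 6.32 and 6.52 CPM unstimulated and 4.08, 3.65 and 3.85 with IL-10 (log2 fold-change -0.58 ± 0.18), a call lost without replicate 2 (-0.47) or 3 (-0.48). With total counts and with loess offsets 0 of the 29 TSS peaks were called higher (18 and 2 at an unadjusted p under 0.05), and the count was 3 without replicate 1, 0 without replicate 2 (16 at an unadjusted p under 0.05) and 20 without replicate 3. The median log2 ratio over the 29 was 0.74 in replicate 1, 0.48 in replicate 2 and 0.21 in replicate 3.

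LPS against the unstimulated cells gave 5 of 29 TSS peaks called higher (17.2%), beside 20.2% of all TSS peaks, and 1 lower. The median log2 fold-change of the 29 was 0.35 and that of all TSS peaks 0.32. Mki67 had 56.4, 52.4 and 48.1 CPM with LPS against 30.0, 32.1 and 43.4 (log2 fold-change 0.57 ± 0.14; FDR 0.00071, edgeR). Gins2 (0.55), Ccne1 (0.53) and Plk1 (0.50) were also called. Over the promoter class 8 of 88 were called higher and 4 lower, beside 14.3% and 6.71% of all promoter peaks, and 3 of the 8 lay over the TSSs of the neighbouring genes Abhd12, Cds2 and Rab5b. With total counts or loess offsets 0 of the 29 TSS peaks were called higher (6 and 0 at an unadjusted p under 0.05), and the count was 0 without replicate 1 (4 at an unadjusted p under 0.05), 1 without replicate 2 and 16 without replicate 3. The median log2 ratio over the 29 was 0.76 in replicate 1, 0.31 in replicate 2 and 0.01 in replicate 3. The libraries of replicate 2 lay in different lanes, so that its ratio also spans a lane difference.

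Tyms was the 1 TSS peak called lower with LPS. It had 6.76, 8.63 and 11.5 CPM unstimulated and 5.88, 6.69 and 5.79 with LPS, a log2 fold-change of -0.55 ± 0.17 (FDR 0.0078, edgeR). With LPS and (+)-JQ1 it had 9.75, 8.08 and 8.61 CPM, a rise of 0.52 ± 0.16 over LPS on the log2 scale (FDR 0.042, edgeR), and no library of that group fell within the range of the LPS group. The call against the unstimulated cells was lost without replicate 3, and the call against LPS was lost with DESeq2 and without any 1 of the 3 replicates.

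**Figure D3:**
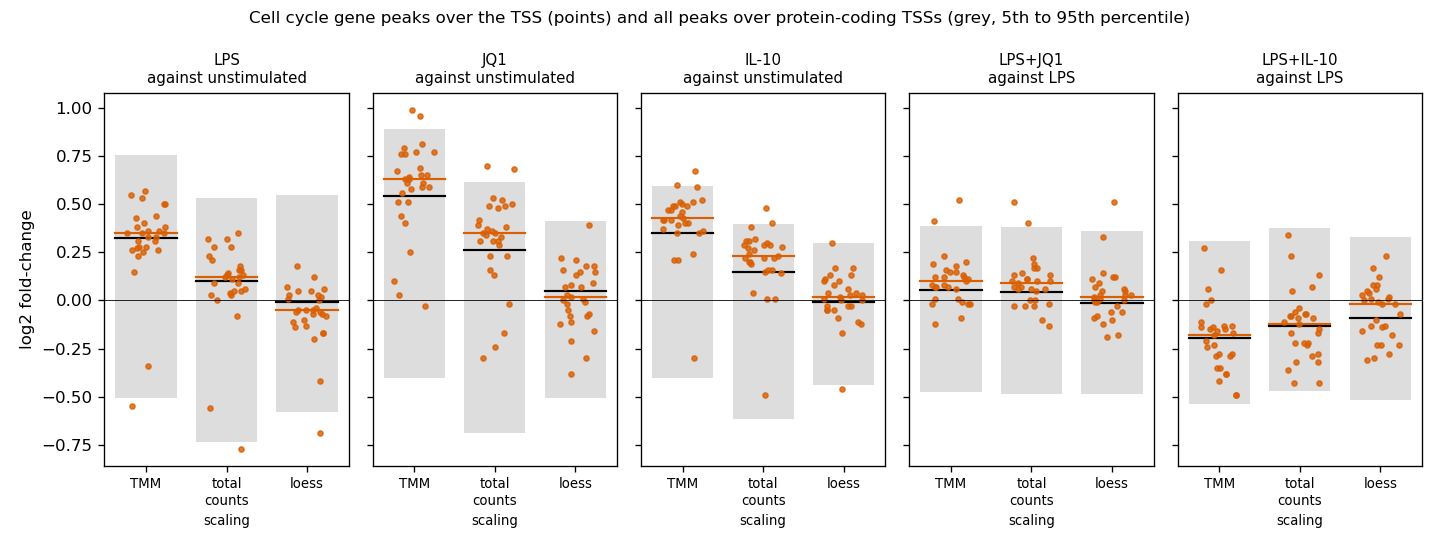
Log2 fold-changes of the 29 cell cycle gene peaks over the TSS (points, orange line at their median) for 5 comparisons under 3 scalings; the grey bar spans the 5th to 95th percentile of all 11600 peaks over protein-coding TSSs and the black line is their median. Points and grey bars shift together with the scaling in the 3 comparisons with the unstimulated cells, where the orange median falls from 0.63 to 0.35 and 0.02 for (+)-JQ1, and they shift less in the 2 comparisons with LPS.

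Against LPS alone, pretreatment changed few TSS peaks of these genes. With (+)-JQ1 the 29 had a median log2 fold-change of 0.10, beside 0.06 over all TSS peaks, and Tyms was the 1 peak called. Cenpa had 39.3, 40.7 and 35 CPM against 31.5, 27.0 and 27.9 with LPS, 3 libraries above all 3 of the LPS group, and its log2 fold-change of 0.41 ± 0.13 (FDR 0.045, edgeR) was under the size needed for a call. Over the promoter class 2 of 88 were called higher and 0 lower (2 at an unadjusted p under 0.05 with edgeR and 0 called with DESeq2), beside 1.72% and 3.22% of all promoter peaks. With IL-10 the median was -0.18, beside -0.20 over all, and 0 of the 29 were called in either direction (0 higher and 11 lower at an unadjusted p under 0.05, and 0 called with DESeq2). Over the promoter class 2 of 88 were called higher and 1 lower, beside 3.04% and 3.94%. E2f1 had 76.7, 66.8 and 66.4 CPM with LPS, 69.9, 74.8 and 62.4 with (+)-JQ1 added and 59.8, 60.8 and 52.4 with IL-10 added, with log2 fold-changes of -0.02 ± 0.14 and -0.28 ± 0.14. Ccne1, with 82.4, 66.8 and 67.7 CPM with LPS, had 62.7, 53.1 and 46.4 with IL-10 added. That is a log2 fold-change of -0.42 ± 0.14 (FDR 0.037, edgeR), under the size needed for a call. Ccnd1 stood at 28.9, 27.9 and 25.5 CPM with LPS and at 27.6, 27.3 and 26.5 with (+)-JQ1 added (log2 fold-change -0.02 ± 0.13).

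The interaction of LPS with each treatment asks whether the treatment's step differs with LPS present. For (+)-JQ1, 8 of the 29 TSS peaks were called, each lower, beside 28.1% of all TSS peaks. The largest was at Ccne1, where the step with (+)-JQ1 was lower by 0.85 ± 0.20 log2 units with LPS than without (FDR 0.0078, edgeR). Its mean went from 50.0 to 84.7 CPM with (+)-JQ1 without LPS and from 72.3 to 68.1 with LPS. Over the promoter class the calls were 1 higher and 13 lower of 88, beside 0.614% and 11.2%, and 0 of 134 distal peaks were called in either direction (6 higher and 5 lower at an unadjusted p under 0.05, and 1 lower called with DESeq2), beside 0.658% and 1.33%. For IL-10, 19 of the 29 were called lower, beside 40.4% of all TSS peaks. They were led by Gins2, whose step was lower by 1.17 ± 0.19 log2 units (FDR 1.6e-05, edgeR). Its mean rose from 44.7 to 71.5 CPM with IL-10 without LPS and fell from 65.3 to 46.5 with LPS. Over the promoter class 2 were higher and 26 lower, beside 1.4% and 16.9%, and among distal peaks 2 higher and 1 lower, beside 2.15% and 3.33%. Every interaction uses the unstimulated libraries. With loess offsets 0 of the 29 were called lower for either treatment (0 for (+)-JQ1 and 6 for IL-10 at an unadjusted p under 0.05), and with the replicate number as a block 4 were for (+)-JQ1 and 17 for IL-10. For (+)-JQ1 the count was 0 without replicate 1 or 2 (8 and 14 at an unadjusted p under 0.05) and 17 without replicate 3, and for IL-10 it was 6, 2 and 20.

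Across the 29 TSS peaks, the step went with how open and how CpG-rich the peak was. For (+)-JQ1 against unstimulated, Spearman's rho of the log2 fold-change was 0.69 with accessibility per kb and 0.55 with the observed-to-expected CpG ratio. Over all 11600 TSS peaks the values were 0.83 and 0.47. For LPS + IL-10 against LPS the values for the 29 were -0.70 and -0.65, beside -0.36 and -0.32 over all TSS peaks. For LPS + (+)-JQ1 against LPS they were 0.06 and -0.10, beside 0.22 and 0.02. These are correlations across peaks that share libraries and depth, given as descriptions. The median step with (+)-JQ1 was 0.61 for the 17 genes with a G1/S role and 0.63 for the 12 with a G2/M role, and 0.64 for the 6 with E2F letters and 0.60 for the 10 with CHR letters.

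Away from the TSS, calls with LPS went both ways. Of the 134 distal member peaks 4 were called higher with LPS and 13 lower, beside 11.1% and 11.0% of all distal peaks. The 4 higher ones lay upstream of E2f1, Aurkb (2 peaks) and Cdt1. The intergenic peak centred at -4135 bp from the TSS of E2f1 (chr2:154399008-154400519, mm9) had 3.48, 1.76 and 4.49 CPM unstimulated and 7.08, 6.19 and 6.93 with LPS, a log2 fold-change of 1.06 ± 0.20 (FDR 1.8e-05, edgeR). With LPS and IL-10 it reached 12.3, 8.57 and 11.3 CPM, a further 0.68 ± 0.18 over LPS (FDR 0.0053, edgeR), and it had 5.91, 4.20 and 4.38 CPM with LPS and (+)-JQ1 (-0.50 ± 0.19 against LPS, FDR 0.11, edgeR). IL-10 alone gave 4.23, 5.98 and 5.68 CPM (0.71 ± 0.20 over unstimulated), within which 1 library overlapped the unstimulated range, and this call was lost with total counts (0.51), with loess offsets (0.60) and without replicate 2 (0.30). The LPS call held under all 10 other settings run on single peaks, and the call of IL-10 over LPS under 9, without replicate 3 being the exception.

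Aurkb, the kinase of the chromosomal passenger complex, had 2 intergenic peaks upstream that rose with LPS. The one centred at -8573 bp (chr11:68850167-68850985) had 8.16, 11 and 12.3 CPM unstimulated and between 18.2 and 20.6 in the 3 libraries with LPS (log2 fold-change 0.89 ± 0.14; FDR 4.3e-07, edgeR). It stayed at 22.0, 15.6 and 20.2 CPM with (+)-JQ1 added and at 18.4, 20.3 and 19.9 with IL-10 added, with log2 fold-changes against LPS of -0.03 ± 0.14 and -0.01 ± 0.14. The peak at -4871 bp (chr11:68853712-68854845) had 28.6, 29.2 and 37.8 CPM unstimulated, and 56.4, 58.9 and 52.4 with LPS (0.81 ± 0.13), a call lost with loess offsets. Downstream, at +7394 bp (chr11:68866070-68867017), the order differed. That peak had 4.42, 2.03 and 2.85 CPM unstimulated and 4.32, 3.40 and 4.24 with LPS, and fell to 1.46, 2.57 and 1.82 with LPS and (+)-JQ1 and to 2.13, 1.97 and 2.16 with LPS and IL-10. Both falls were called, by 1.01 ± 0.24 on the log2 scale (FDR 0.0029, edgeR) and by 0.93 ± 0.24 (FDR 0.0044), and the first was lost without replicate 1 or replicate 3 and the second without replicate 3.

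The same 2 calls were made at an intergenic peak centred at -10433 bp from the TSS of Ccnb1 (chr13:101565165-101568752), the gene of cyclin B1. It had 10.2, 12.8 and 15.3 CPM with LPS, 6.29, 8.95 and 8.30 with (+)-JQ1 added and 8.99, 10.8 and 6.48 with IL-10 added. The log2 fold-changes were -0.68 ± 0.17 (FDR 0.0035, edgeR) and -0.55 ± 0.16 (FDR 0.017), and the LPS + IL-10 libraries overlapped the LPS ones. These 2 comparisons share the LPS libraries. Without replicate 3 neither was called, and the second was also lost with DESeq2 and with total counts. The intronic peak at -2444 bp from the TSS of Cdt1, the licensing factor (chr8:125088353-125090589, within the gene model Gm20388), had 17.1, 16.6 and 19.4 CPM unstimulated and 30.7, 28.2 and 30.6 with LPS (0.75 ± 0.14; FDR 6e-06, edgeR), also lost with loess offsets.

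The 13 distal peaks lower with LPS differed in level, and the median over all member distal peaks was 2.33 CPM. An intronic peak of Abhd12, centred at -8414 bp from the TSS of Gins1 (chr2:150720170-150725275), had 18.4, 20.4 and 25.9 CPM unstimulated and 12.2, 11.1 and 11.6 with LPS (log2 fold-change -0.89 ± 0.14; FDR 2.1e-07, edgeR). Cdc45 had an exonic peak at +2872 bp (chr16:18808459-18809957) with 4.02, 5.33 and 6.79 CPM unstimulated and 3.03, 2.45 and 2.93 with LPS (log2 fold-change -0.95 ± 0.21; FDR 0.00021, edgeR). With LPS and IL-10 it had 5.33, 5.33 and 4.36 CPM, which was 0.83 ± 0.21 above LPS (FDR 0.0030, edgeR) and not called without replicate 2. Peaks within or beside Mcm7 and Mcm3 fell by between 1.19 and 1.3 on the log2 scale, at levels between 0.322 and 1.59 CPM, so that few counts stand behind them. The call of the Mcm7 peak at -1.3 was lost without replicate 2. That of the Mcm7 peak at -1.20 was lost in 5 settings (DESeq2, loess offsets, the lane covariate, and without replicate 1 or 2), and that of the Mcm3 peak at -1.19 in 3 (loess offsets, and without replicate 1 or 3). An exonic peak of Cdt1 at +4913 bp, in the promoter class, fell by 0.99 ± 0.22, from 5.96, 4.67 and 5.53 CPM to 2.11, 3.20 and 2.81, and was called under all 10 other settings. With total counts 44 of the 222 member peaks were called lower with LPS and 4 higher, beside 17 and 12 with TMM.

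The smallest FDR of any member peak was at a broad peak upstream of Cenpa. This promoter-class peak (chr5:30955214-30966788, 11574 bp wide, centred at -8149 bp) overlapped an exon of the gene model 4930471M23Rik. It had 37.5, 35.5 and 35.9 CPM unstimulated and 21.6, 21.0 and 18 with LPS, a log2 fold-change of -0.84 ± 0.13 (FDR 1.7e-07, edgeR). With LPS and IL-10 it had 43.9, 48.0 and 44.9 CPM, 1.17 ± 0.13 above LPS (FDR 1.3e-11, edgeR), and with LPS and (+)-JQ1 23.6, 24.4 and 22.3 (0.21 ± 0.13, FDR 0.44). Without LPS it had 47.4, 48.2 and 44.3 CPM with IL-10 and 27.0, 28.0 and 26.9 with (+)-JQ1. The 3 groups with the lowest values were LPS, LPS + (+)-JQ1 and (+)-JQ1, and the ranges of the IL-10 and LPS + IL-10 groups overlapped. The LPS call and the call of IL-10 over LPS held under all 10 other settings. The TSS peak of Cenpa itself had -0.13 ± 0.13 with IL-10 over LPS, and a distal peak at +1926 bp rose by 0.69 ± 0.19, a call lost without replicate 3.

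**Figure D4:**
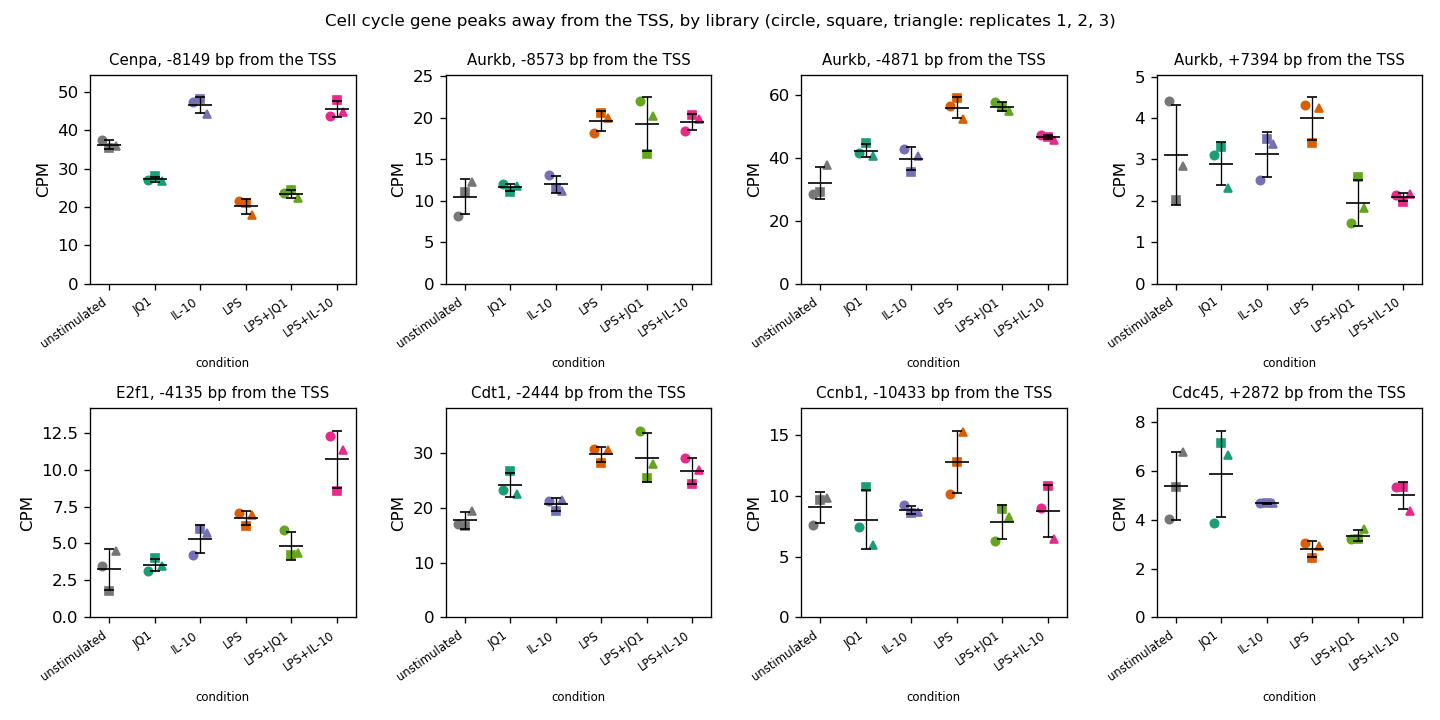
CPM in each library at 8 cell cycle gene peaks away from the TSS, by condition, with the group mean and SD (bars, n = 3) and axes that start at 0; titles give the distance of the peak's centre from the TSS. The peaks upstream of Aurkb and Cdt1 have higher means in every LPS group than in any group without LPS. At the E2f1 peak the LPS and LPS + IL-10 means are the highest, and LPS + (+)-JQ1 (4.83 CPM) lies below IL-10 alone (5.3 CPM). The Cenpa peak is low with LPS and high with IL-10 whether or not LPS was given, and the Aurkb +7394 and Ccnb1 peaks are highest in the LPS group mean.

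Pretreatment moved other distal peaks in small numbers. (+)-JQ1 over LPS gave 1 of 134 higher and 2 lower, beside 1.74% and 3.55% of all distal peaks. The higher one, in an intron of Mki67 at +5914 bp (chr7:142901827-142902470), had 2.16, 1.40 and 2.63 CPM with LPS and 3.45, 3.93 and 3.57 with (+)-JQ1 added (0.84 ± 0.23; FDR 0.012, edgeR). It was also higher with (+)-JQ1 alone, in other libraries, at 5.31, 5.74 and 6.01 CPM against 3.15, 3.79 and 3.29 (0.74 ± 0.21; FDR 0.0083, edgeR), and lower with LPS (-0.74 ± 0.23). Both calls with (+)-JQ1 were lost without replicate 2, and the one without LPS also with total counts and without replicate 3. IL-10 over LPS gave 7 of 134 higher and 3 lower, beside 4.54% and 4.65%. Besides Cdc45, E2f1 and Cenpa, the higher ones lay in Birc5 at +6702 bp (0.82 ± 0.25), in Cdc6 at +8460 bp (0.81 ± 0.18) upstream of Cdt1 at -8915 bp (0.69 ± 0.20) and in Tk1 at +4287 bp (0.56 ± 0.18). The Cdc6 call was lost without replicate 2, the Birc5 call without replicate 1 or 3 and the Cdt1 call without replicate 2 or 3. The third lower one lay in an intron of Mcm6 at +2335 bp (-0.51 ± 0.17). It was lost with DESeq2, with total counts (-0.44) and without any 1 replicate.

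Without LPS, 3 of 134 distal peaks were called higher and 9 lower with (+)-JQ1, beside 4.34% and 3.39%. The broad exonic peak of Gins2 at +6729 bp (chr8:123103438-123109512) fell from 14.7, 13.1 and 13.5 CPM to 7.57, 7.98 and 8.42 (log2 fold-change -0.78 ± 0.16; FDR 1e-04, edgeR) and held under all 10 other settings, while the TSS peak of the same gene rose. IL-10 alone gave 4 higher and 5 lower, beside 4.33% and 3.85%. An intronic peak of Mcm5 at +3957 bp was lower with both treatments, at 3.41, 1.81 and 1.21 CPM unstimulated, 0.775, 0.49 and 0.993 with (+)-JQ1 and 0.688, 0.632 and 0.893 with IL-10. Both of its calls were lost without replicate 1 or 2. An intronic peak of Cdk1 at +4500 bp had 3.08, 3.52 and 2.74 CPM unstimulated, 1.73, 2.10 and 1.25 with (+)-JQ1 and 1.72, 1.80 and 0.846 with IL-10. Its call with (+)-JQ1 was lost with loess offsets and without any 1 replicate, and that with IL-10 without replicate 2. These comparisons share the unstimulated libraries.

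Cell cycle genes outside the 37 were read at the peak over or nearest to their TSS. Of 23 origin and replication genes 20 were called higher with (+)-JQ1, 8 with IL-10 and 5 with LPS, and of 19 mitotic genes 16, 6 and 9. Of 14 genes of the Rb, E2F and DREAM group the counts were 12, 3 and 6, and of 7 genes of G1 kinases, cyclins and CDC25 they were 5, 1 and 2. Of the 7 CDK inhibitor genes 2 were called higher with (+)-JQ1 (Cdkn1b by 0.80 and Cdkn2b by 0.55 on the log2 scale), and 0 with IL-10 or LPS. None of these lists held a peak called lower in these 3 comparisons. Over all peaks at protein-coding TSSs the shares called higher were 53.7%, 17.1% and 20.2%. These list counts are with TMM scaling, and the lists were not counted with total counts, under which the 23 of 29 member TSS peaks called with (+)-JQ1 became 4. Of the 63 ribosomal protein peaks 41, 9 and 11 were called higher in the same 3 comparisons, and the counts fell to 7, 0 and 1 with total counts.

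Ccnd2, which encodes another D-type cyclin, was the 1 gene of these lists called in all of 3 comparisons that involve LPS. It rose with LPS by 0.90 ± 0.14 (FDR 6.9e-08, edgeR), and against LPS it fell by 0.61 ± 0.13 with (+)-JQ1 (FDR 0.0010) and by 0.51 ± 0.13 with IL-10 (FDR 0.0053). The largest change with LPS after Ccnd2 was at Mybl2, which encodes B-Myb, with 0.81 ± 0.15. Both genes were picked from the lists after their values were seen. Their values are with TMM scaling, and none is given for other scalings or with a replicate left out.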

How the data were processed

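ATAC-seq was done on nuclei of BMDMs in 18 libraries, 6 groups of 3. The authors processed the reads with PEPATAC v0.9.0, aligned them to mm9 with bowtie2, called peaks in each library with MACS2, merged them and split the union into promoter (1000 bases before to 100 after a start) and distal peaks with ChIPseeker. The deposited values are raw counts per peak and library, with no normalization and no pooling. Which program made the count table is not given in the sources used here. The union table held 6 further columns that matched no sample and were not used. Peaks are merged across libraries, so a broad peak can join several sites.

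Members, lists and tests were chosen with earlier results of these data known. Groups and replicate numbers came from the labels. The deposited counts were filtered (filterByExpr), scaled by TMM and fitted in 1 model of all 18 libraries with edgeR 4.0.16 (R 4.3.3), and quasi-likelihood tests gave 5 comparisons and 2 interactions with Benjamini-Hochberg adjustment over 194230 tested peaks. The fitting script was tested on simulated data. A peak was called at FDR under 0.05 and an absolute log2 fold-change above 0.5. The p-values rest on a spread estimated per peak over all 18 libraries, not on the 2 groups compared alone. Group spreads differed: at the TSS peak of Ccne1 the SD was 14.0 CPM unstimulated and 0.321 with IL-10. Named with values were, per comparison, the called peaks, at most 6 of the largest change per direction and class, and the TSS peaks of 12 fixed genes; the 8 peaks plotted and the genes discussed in most detail were picked from these after their values were seen, as were the intronic Abhd12 peak near Gins1, the Cenpa TSS peak over LPS and the genes named from other lists. Other alternatives were DESeq2 1.42.0, its size factors, total counts, loess offsets (span 0.3), no filter, a replicate block, a lane covariate and leaving out each replicate number. The labels call the samples matched without saying what a replicate number stands for, and libraries sharing a number deviated from their group means with a mean correlation of 0.0057 over 45 pairs, beside -0.0029 over 90 other pairs. Intervals on log2 fold-changes are standard errors worked back from the fold-change and the F statistic of the test, so they carry the same shared spread as the p-values. Depth was 12020526 to 25908198 counts per library. Counts in wide and narrow peaks are compared per kb. Sequence and motifs came from the NCBIM37 (mm9) genome.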

Additional observations from a re-analysis of the deposited data

Results flagged for a closer look

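A step with treatment that differed with and without LPS, tested as an interaction in edgeR, marked 14 member peaks for (+)-JQ1 and 31 for IL-10. Values are the difference of log2 steps, with LPS minus without. All use the unstimulated libraries, and the part of the scaling was not tested beyond the alternatives given.

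For (+)-JQ1, the peaks over the TSSs of replication and G1/S genes had -0.62 at Mcm3, -0.85 at Ccne1, -0.61 at E2f1 and -0.81 at Gins2. Those of mitotic genes had -0.69 at Ccna2, -0.63 at Bub1b, -0.74 at Mki67 and -0.64 at Kif11. Peaks near members had -0.75 at Cds2 near Pcna, -0.68 at Rab5b near Cdk2, -0.73 at Abhd12 and -0.63 at a second promoter peak near Gins1, and -0.64 at Elovl1 near Cdc20. The broad peak upstream of Cenpa went the other way, with 0.62.

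For IL-10, TSS peaks of licensing and replication genes had -0.86 at Mcm3, -0.58 at Mcm7, -0.63 at Cdc6, -0.60 at Cdt1, -0.70 at Cdc45 and -1.17 at Gins2. The ribonucleotide reductase genes had -0.71 at Rrm1 and -0.56 at Rrm2. The G1/S regulators had -0.93 at Ccne1, -0.66 at Ccne2 and -0.77 at E2f1. Mitotic genes had -0.99 at Ccna2, -0.86 at Ccnb1, -0.84 at Plk1, -0.67 at Top2a, -0.83 at Mki67, -0.72 at Birc5, -0.72 at Cenpa and -0.78 at Kif11. Peaks near members had -0.82 at Cds2, -0.98 at Rab5b, -1.04 at Abhd12, -0.74 at the second peak near Gins1, -0.79 at Cenph near Ccnb1, -0.64 at Afmid near Tk1, -0.88 at Elovl1 and -0.58 upstream of Aurkb. The 4 that went the other way were 1.08 inside Cdt1, 0.81 upstream of Cenpa, 0.82 inside Tk1 and 1.04 inside Cdc45.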

How the results depend on the processing

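Counts of called peaks are over the 222 member peaks, and the cause of each shift was not tested. Loess offsets remove a shift shared by peaks of like abundance, so low counts under them are largely set by the method. With TMM, total counts and loess offsets, higher calls numbered 12, 4 and 3 for LPS, 34, 6 and 2 for (+)-JQ1, and 15, 0 and 0 for IL-10 (27 and 12 higher for IL-10 at an unadjusted p under 0.05 in edgeR, and 20 called by DESeq2). Lower calls went from 17 to 44 with total counts for LPS, from 11 to 32 (7 with loess, 5 with DESeq2) for (+)-JQ1 and from 6 to 20 for IL-10. With FDR alone as the rule, 26 were higher for LPS and 32 for IL-10. Against LPS, the 3 higher calls with (+)-JQ1 became 1 with DESeq2 and 5 with FDR alone, and the 2 lower became 1 with the distance taken from the peak centre. The 4 lower calls with IL-10 became 2 with DESeq2, 1 with total counts and 8 with FDR alone. The 14 interaction calls with (+)-JQ1 became 23 with DESeq2, 7 with total counts and 4 with loess offsets, and the 31 with IL-10 became 7 with loess offsets. With the replicate number as a replicate block the (+)-JQ1 interaction gave 7, and no other count moved by more than 1.5 times; of the named calls lost under this pairing block, Ccna2 inside the gene had -0.89 with (+)-JQ1, and the interactions were 0.62 for the Cenpa upstream peak, -0.61 for E2f1 and -0.58 for the Aurkb upstream peak.

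Leaving out 1 replicate number gave 5 to 27 higher and 10 to 18 lower with LPS, 6 to 43 and 1 to 7 with (+)-JQ1, and 0 to 33 and 0 to 4 with IL-10. Over LPS it gave 0 to 2 and 1 to 2 with (+)-JQ1, and 4 to 9 and 2 to 4 with IL-10. The interactions gave 0 to 23 with (+)-JQ1 and 3 to 33 with IL-10. The counts of 0 (edgeR) came without replicate 2 for IL-10 (28 higher and 11 lower at an unadjusted p under 0.05) and for (+)-JQ1 over LPS (9 higher), and without replicate 1 or 2 for the (+)-JQ1 interaction (31 and 27).

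The sign turned with loess offsets at the TSS peaks of Mcm5 (-0.05), Ccne1 (-0.02) and E2f1 (-0.21) with (+)-JQ1, at E2f1 in both interactions (0.09 with (+)-JQ1 and 0.02 with IL-10) and at the Aurkb upstream peak in the IL-10 interaction (0.08). The median of promoter peaks with IL-10 over LPS moved to 0.01 with loess offsets. With 3 libraries a group and 12020526 to 25908198 counts a library, peaks near 1 CPM rest on few reads, and a change that was not called is not shown to be absent.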
